A study of Homo sapiens with 4 samples.

Results

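MCF10A cells are a spontaneously immortalised line from human breast epithelium that does not form tumours. In both groups they stably expressed a scramble shRNA, which serves as a control hairpin and is not directed at a gene. The TGF-β1 group was 2 libraries from cells given TGF-β1 at 5 ng/ml for 1.5 h, and the control group was 2 libraries at 0 h. Both groups grew in medium with EGF at 20 ng/ml, insulin at 10 μg/ml, hydrocortisone at 500 ng/ml, cholera toxin at 100 ng/ml 5% horse serum and penicillin with streptomycin, so a ligand of the EGF receptor was present throughout. The genes described are 10 that are grouped as feedback inhibitors of the ERK pathway, of 34500 genes with a transcript in the tables. They are DUSP1, DUSP4, DUSP5, DUSP6, DUSP7, DUSP10, SPRY2, SPRY4, SPRED1 and SPRED2. They were listed by name, with earlier results of these data known, and each was found as 1 gene of GENCODE release 29. All 10 passed the filter on low counts, as did 14774 genes in all.

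Growth factor receptors such as the EGF receptor activate RAS, which switches on the kinases RAF, MEK and ERK in turn. Active ERK raises the transcription of its own inhibitors. Among the dual-specificity phosphatases (DUSPs), the MAP kinase phosphatases remove the activating phosphates from ERK, JNK or p38. Sprouty and SPRED proteins act further upstream, at the receptor adaptors, RAS and RAF. The mRNAs of several of these inhibitors are short-lived, and DUSP6, SPRY2 and SPRY4 are widely used as readouts of ERK output.

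The library totals ran from 35737659 to 40792300 estimated counts. Of the 9 basal mammary markers all passed the filter, with KRT5, a basal keratin, at 2248 ± 169 TPM after TGF-β1 and 2204 ± 256 TPM in the controls (SD, n = 2 each). TPM (counts per transcript length, scaled to a fixed library sum) corrects for transcript length and is the scale used here to compare genes with each other. The 7 luminal markers summed to 669 and 516 TPM after TGF-β1, against 701 and 505 TPM in the controls, most of it KRT8 and KRT18, while PGR was at most 0.03 CPM in a library (CPM is counts scaled to library size). The summed TPM of the 7 fibroblast markers was 28.5 and 26.2 after TGF-β1, against 21.4 and 19.8 in the controls, most of it DCN. Of its collagens, COL3A1 was at most 0.03 CPM, while COL1A1 had 8.74 and 4.90 CPM after TGF-β1 and 3.90 and 2.59 CPM in the controls (log2 fold change 1.07, edgeR adjusted p = 1.00). That of the 8 blood and endothelial markers was 15.3 and 14.6, against 18.1 and 15.7, with CD3E at 0. The part of these other markers in the results was not tested. SMAD7, the inhibitory SMAD used as a check of the treatment, had 128.8 and 100.1 CPM after TGF-β1 and 8.58 and 8.27 CPM in the controls. In all values below, libraries are named by group and replicate number, replicate 1 first. Differences within each replicate number are given beside the pooled ones. They set 1 library against 1 and carry no test.

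The comparison sets transcripts of these inhibitors after 1.5 h of TGF-β1 against those at 0 h. No untreated library at 1.5 h is among them, so the cytokine and the time or handling since 0 h cannot be told apart. The 10 genes did not differ in a single direction. DUSP10, DUSP4 and DUSP1 were higher in both TGF-β1 libraries than in both controls, DUSP5 and DUSP6 were lower, and SPRED1 was lower by a small margin. The log2 fold changes ran from -1.18 for DUSP5 to 1.24 for DUSP10, and their median absolute value was 0.59, against 0.07 over all tested genes. Their median was 0.18, against -0.01 over all tested genes. In the fits of all 4 libraries without a term for the replicate number, none of the 10 passed a test across all genes. edgeR's quasi-likelihood test called 0 members, and DESeq2's Wald test also called 0, at a Benjamini-Hochberg adjusted p under 0.05. Over all genes these tests called 0% and 0.458%. With a replicate term, edgeR called 4 members higher and 3 lower, against 259 and 76 of 14774 genes. DESeq2 with that term also called 4 and 3, against 194 and 51 of 15539 genes. The labels do not say whether the replicate numbers pair the libraries. At an unadjusted p under 0.05 in edgeR without that term, 2 members were higher (DUSP4 and DUSP10) and 2 lower (DUSP5 and DUSP6). Over all genes 1.34% were higher and 0.386% lower at that threshold. The 3 members above both controls and the 3 below compare with 7.87% and 8.34% of all genes. In all 10 members the difference had 1 direction within both replicate numbers, 6 up and 4 down, as in 54.9% of all genes. With 2 libraries per group the p-values rest on little replication, and a library holds the RNA of all its cells, so fewer cells with a transcript and less of it per cell cannot be told apart.

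**Figure D1:**
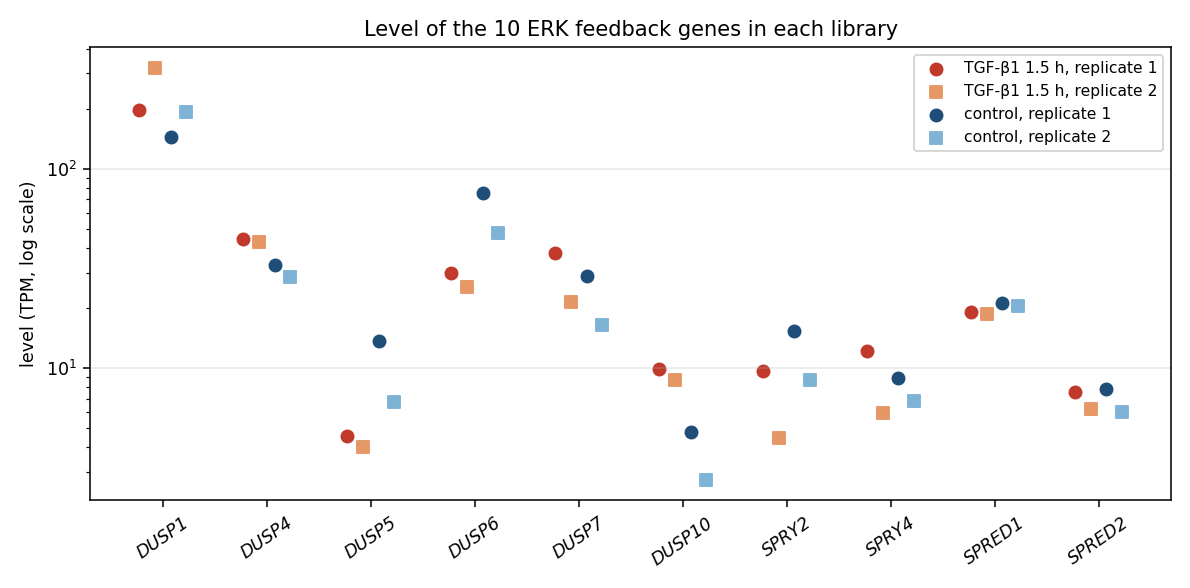
Level of each gene in TPM on a log scale, 1 point per library, TGF-β1 libraries left of the controls. DUSP1 lies above all other members in every library, and DUSP6, second in the controls, lies below DUSP4 in both TGF-β1 libraries.

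DUSP1, DUSP4 and DUSP5 encode nuclear phosphatases induced by growth factors and stress. DUSP1 (chromosome 5, 172768090 to 172771195, GRCh38, minus strand) dephosphorylates p38, JNK and ERK and is also known as a glucocorticoid-induced gene. Its mRNA had 270.1 and 469 CPM after TGF-β1, against 198 and 269 CPM in the controls. The lower TGF-β1 library and the higher control nearly met, so the groups only just failed to overlap. The log2 fold change was 0.67 ± 0.33 (SE), with 0.45 within replicate 1 and 0.80 within replicate 2 (edgeR adjusted p = 1.00, DESeq2 adjusted p = 1.00). Without TGF-β1 replicate 2 the edgeR value for DUSP1 was 0.22, and without TGF-β1 replicate 1 it was 1.01.

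DUSP4 (chromosome 8, 29333064 to 29350668, minus strand), which acts on ERK and JNK, had 173 and 179 CPM after TGF-β1 and 130.0 and 115 CPM in the controls. These were the closest replicates of any member that differed by more than 0.5 on the log2 scale, and the groups did not overlap. The log2 fold change was 0.52 ± 0.12 (SE), or 0.41 and 0.64 within replicates 1 and 2 (edgeR unadjusted p = 0.0112, adjusted p = 1.00). DUSP5 (chromosome 10, 110497838 to 110511544, plus strand), which is selective for ERK, lay on the other side from DUSP1 and DUSP4. It had 8.05 and 6.52 CPM after TGF-β1, against 20.8 and 12.3 CPM in the controls. Both TGF-β1 libraries lay under both controls, and edgeR estimated -1.18 ± 0.32 (SE) for the log2 ratio. The replicate 1 pair gave -1.32 and the replicate 2 pair -0.86 (edgeR unadjusted p = 0.0184, adjusted p = 1.00; DESeq2 adjusted p = 0.272). Without control replicate 1 the edgeR value for DUSP5 was -0.74. DUSP5 rested on 315 and 225 counts after TGF-β1 and 828 and 449 in the controls.

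DUSP6 and DUSP7 encode cytoplasmic phosphatases that are selective for ERK. DUSP6 (chromosome 12, 89347232 to 89353271, minus strand) had 43.95 and 40.9 CPM after TGF-β1 and 108 and 70.4 CPM in the controls. The 2 TGF-β1 libraries were nearly equal while the controls differed from each other, and all TGF-β1 values lay below them. The log2 fold change was -1.07 ± 0.24 (SE), with -1.29 within replicate 1 and -0.78 within replicate 2 (edgeR unadjusted p = 0.00909, adjusted p = 1.00). DESeq2 gave DUSP6 the lowest adjusted p of any member, 0.0705. Without control replicate 2, which leaves the higher control alone, that adjusted p was 0.0171. DUSP7 (chromosome 3, 52048919 to 52056550, minus strand) had 87.9 and 53.8 CPM after TGF-β1 and 67.9 and 39.0 CPM in the controls. Here the groups overlapped, because both libraries numbered 2 were well below those numbered 1. The log2 fold change was 0.41 ± 0.38 (SE), or 0.37 and 0.46 within replicates 1 and 2.

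DUSP10 (chromosome 1, 221701424 to 221742176, minus strand) encodes a phosphatase that prefers JNK and p38 to ERK, so its substrates lie mainly outside the ERK pathway. Its mRNA had 17.3 and 15.9 CPM after TGF-β1, against 8.88 and 5.19 CPM in the controls. Both TGF-β1 libraries were above both controls, and its log2 fold change, 1.24 ± 0.31 (SE), was the largest in size among the 10. It was 0.92 for the replicate 1 pair and 1.53 for the replicate 2 pair (edgeR unadjusted p = 0.0132, adjusted p = 1.00; DESeq2 adjusted p = 0.111). Without control replicate 1 the DESeq2 adjusted p was 0.0170. The estimated counts behind DUSP10 were 677 and 550 after TGF-β1 and 353 and 190 in the controls.

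SPRY2 and SPRY4 encode Sprouty proteins, membrane-associated inhibitors of signalling from receptor tyrosine kinases to RAS and RAF. SPRY2 (chromosome 13, 80335976 to 80340951, minus strand) had 14.4 and 7.07 CPM after TGF-β1 and 22.6 and 13.2 CPM in the controls. TGF-β1 replicate 1 lay above control replicate 2, so the groups overlapped, although the value was lower after TGF-β1 within both replicate numbers. The log2 fold change was -0.74 ± 0.46 (SE), with -0.64 and -0.86 within replicates 1 and 2 (edgeR adjusted p = 1.00). SPRY4 (chromosome 5, 142310427 to 142326455, minus strand) had 31.0 and 16.2 CPM after TGF-β1 and 25.2 and 15.04 CPM in the controls. Its groups also overlapped, and its log2 fold change of 0.23 ± 0.42 (SE) was smaller than its error. Without TGF-β1 replicate 1 or control replicate 2 its edgeR log2 fold change was -0.32 or -0.09.

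SPRED1 and SPRED2 belong to a family related to Sprouty, and SPRED1 is known to bring neurofibromin, which inactivates RAS, to the membrane. SPRED1 (chromosome 15, 38252326 to 38357249, plus strand) was the steadiest member, with 87.8 and 87.3 CPM after TGF-β1 and 88.9 and 88.5 CPM in the controls. The log2 fold change was -0.02 ± 0.10 (SE), and although the groups did not overlap, the difference was well within that error. SPRED2 (chromosome 2, 65310851 to 65432637, minus strand) had 18.7 and 15.2 CPM after TGF-β1 and 17.7 and 13.2 CPM in the controls. The groups overlapped, and the log2 fold change was 0.13 ± 0.22 (SE). Its edgeR value was -0.03 without TGF-β1 replicate 1 and -0.06 without control replicate 2.

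**Figure D2:**
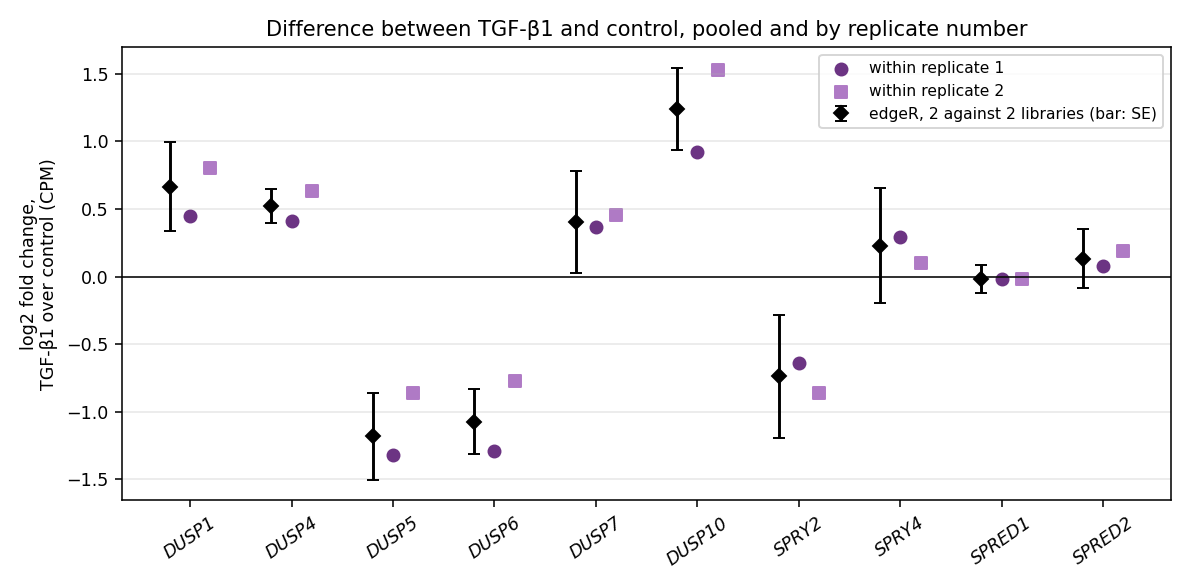
Log2 fold change of each gene, TGF-β1 over control in CPM, as edgeR's estimate with its SE, and as the difference within replicate 1 and within replicate 2. DUSP5, DUSP6 and SPRY2 lie below 0 in all 3 values, DUSP10, DUSP4, DUSP1, DUSP7, SPRY4 and SPRED2 above, and SPRED1 at 0.

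By mean TPM the controls ran from DUSP1 (168) through DUSP6 (61.5), DUSP4 (30.8), DUSP7 (22.7), SPRED1 (20.9), SPRY2 (12.0), DUSP5 (10.2), SPRY4 (7.84) and SPRED2 (6.93) to DUSP10 (3.76). In the controls DUSP4, DUSP7 and SPRED1 overlapped in turn, each with the next in the order, and so did SPRY2, DUSP5, SPRY4 and SPRED2. After TGF-β1 the order was DUSP1 (258), DUSP4 (43.5), DUSP7 (29.6), DUSP6 (27.8), SPRED1 (18.9), DUSP10 (9.29), SPRY4 (9.02), SPRY2 (7.03), SPRED2 (6.88) and DUSP5 (4.28). DUSP7 and DUSP6 overlapped there, and so did DUSP10, SPRY4, SPRY2 and SPRED2 in turn. DUSP10 was last of the 10 in the controls and sixth after TGF-β1, while DUSP5 was seventh in the controls and last after TGF-β1.

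The summed TPM of the cytoplasmic ERK-selective pair, DUSP6 and DUSP7, was 67.7 and 47.0 after TGF-β1, against 104 and 63.9 in the controls. It made up 18.2% and 10.3% of the summed TPM of the 10 members after TGF-β1, and 29.6% and 19.0% in the controls. The nuclear DUSP1, DUSP4 and DUSP5 together held 66.1% and 80.1% after TGF-β1, against 53.9% and 67.6% in the controls. DUSP1 alone held 53.0% and 69.9% after TGF-β1, against 40.7% and 57.1% in the controls. The groups overlapped in the summed TPM of DUSP6 and DUSP7, in the share of the nuclear members and in that of DUSP1. The share of DUSP6 and DUSP7 was lower in both TGF-β1 libraries than in both controls. Ratios within a library do not depend on how libraries are scaled, and the pairs given here were chosen after the values were seen. DUSP6 TPM over DUSP4 TPM was 0.678 and 0.599 after TGF-β1, against 2.29 and 1.66 in the controls. DUSP10 over DUSP5 was 2.17 and 2.18 after TGF-β1, against 0.348 and 0.406 in the controls. For SPRY2 over SPRY4 it was 0.796 and 0.747 after TGF-β1, against 1.72 and 1.28 in the controls, so SPRY2 was the more abundant of this pair in both controls and the less abundant in both TGF-β1 libraries.

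The difference between replicate numbers was as large as that between treatments for part of the group. Libraries numbered 2 had less DUSP7, SPRY2 and SPRY4 than those numbered 1, by mean log2 differences of -0.75, -0.86 and -0.82. For these 3 genes and SPRED2 the replicate difference exceeded the mean treatment difference, and for the other 6 members it was the smaller one. DUSP1 stood apart from the other members in that it was higher in the libraries numbered 2, by 0.62 on the log2 scale, nearly its treatment difference of 0.63. DUSP4 (-0.06) and SPRED1 (-0.01) hardly differed between the numbers. The labels do not say what a replicate number stands for, and what sets the libraries numbered 2 apart was not tested.

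**Figure D3:**
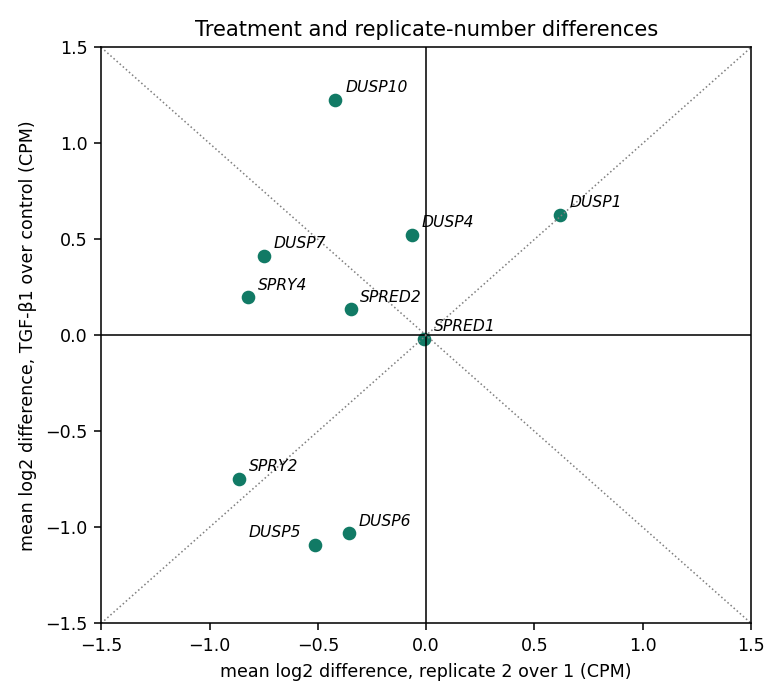
Mean log2 difference in CPM between TGF-β1 and control within replicate numbers (vertical) against that between replicates 2 and 1 within groups (horizontal), 1 point per gene, with dotted lines where both are equal in size. DUSP10, DUSP5, DUSP6 and DUSP4 lie on the side of the treatment, DUSP7, SPRY2 and SPRY4 on that of the replicate number.

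At the level of single transcripts, estimated by sharing reads among them, the DUSP6 values pointed the same way in each of the 3 transcripts with at least 10% of the gene's TPM. DUSP6-202 had 10.3 and 9.39 TPM after TGF-β1 and 28.1 and 20.2 TPM in the controls. DUSP6-204 had 10.3 and 7.23 TPM after TGF-β1, against 23.3 and 13.4 TPM in the controls. DUSP6-201 had 7.21 and 6.41 TPM after TGF-β1, against 16.7 and 10.2 TPM in the controls. For each of the 3, both TGF-β1 libraries lay below both controls, and the share of DUSP6-202 in the gene was 35.4% after TGF-β1 and 39.3% in the controls. DUSP4 came almost wholly from DUSP4-201, at 95.9% of its TPM after TGF-β1 and 97.2% in the controls. In DUSP10 the coding transcript DUSP10-201 had 8.98 and 7.68 TPM after TGF-β1 and 4.77 and 2.72 TPM in the controls. A DUSP10 transcript annotated for nonsense-mediated decay, DUSP10-203, singled out after its values were seen, had 17.7 and 17.1 estimated counts after TGF-β1 and 0 and 0.597 in the controls. These are few counts, and they are estimates. edgeR on single transcripts called 0 transcripts of the 10 genes among 57796 tested. SPRY2 came mainly from SPRY2-202 (88.5% of its TPM after TGF-β1 and 91.4% in the controls), and DUSP1 has a single annotated transcript.

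**Figure D4:**
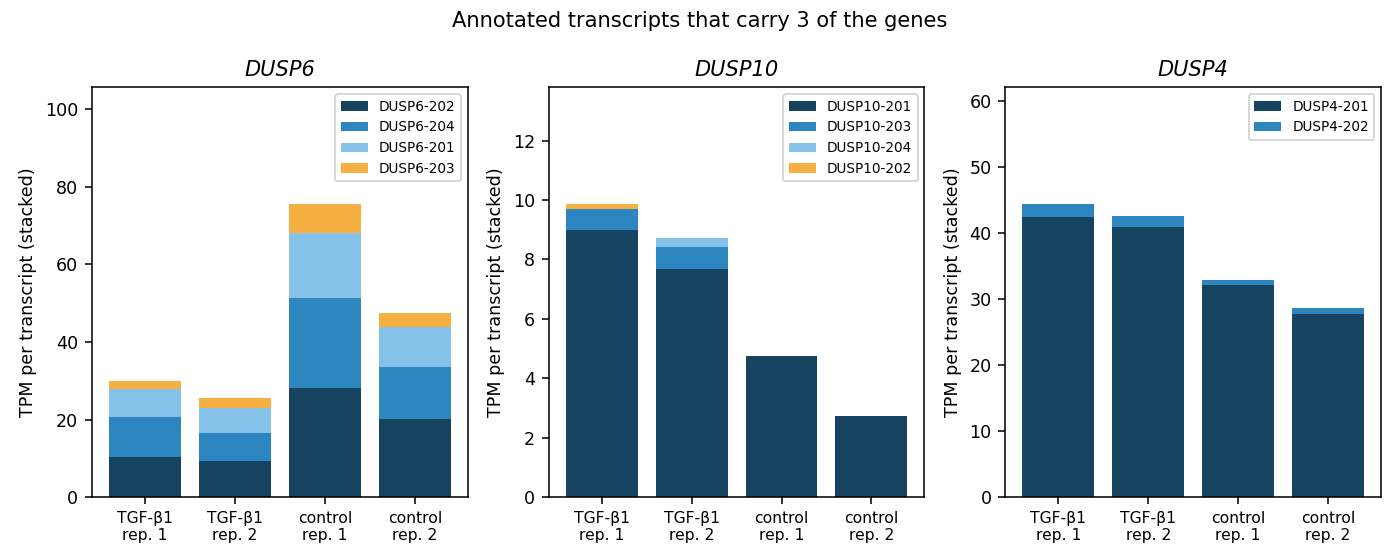
TPM of the annotated transcripts of DUSP6, DUSP10 and DUSP4, stacked, 1 bar per library with TGF-β1 left of the controls (up to 4 transcripts per gene). The DUSP6 transcripts are all shorter in the TGF-β1 bars, and DUSP10-201 is taller.

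Sequences before the RefSeq transcription starts (GRCh38.p14) are shown for 4 members that differed in direction or in abundance, to set the most abundant one, DUSP1, beside DUSP7, DUSP10 and SPRY2. They read 5′ to 3′ along the gene. For DUSP10 the RefSeq start is that of DUSP10-203, which lies 87 bases inside the gene. Its printed stretch ends at position -88 from that start, and the others end at -1 from theirs. Capitals mark matches, on either strand, to the motifs named after them.
DUSP1, chr5:172771196-172771445, minus strand: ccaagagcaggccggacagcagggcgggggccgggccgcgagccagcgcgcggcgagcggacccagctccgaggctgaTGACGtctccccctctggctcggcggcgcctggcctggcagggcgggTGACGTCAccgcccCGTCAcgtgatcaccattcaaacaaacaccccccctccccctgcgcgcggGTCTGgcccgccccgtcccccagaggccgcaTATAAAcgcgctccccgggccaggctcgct
DUSP7, chr3:52056572-52056821, minus strand: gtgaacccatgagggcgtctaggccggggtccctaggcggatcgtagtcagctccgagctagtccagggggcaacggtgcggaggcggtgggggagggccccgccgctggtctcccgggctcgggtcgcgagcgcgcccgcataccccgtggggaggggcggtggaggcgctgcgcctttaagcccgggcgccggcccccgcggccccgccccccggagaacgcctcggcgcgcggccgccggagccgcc
DUSP10, chr1:221742177-221742339, minus strand: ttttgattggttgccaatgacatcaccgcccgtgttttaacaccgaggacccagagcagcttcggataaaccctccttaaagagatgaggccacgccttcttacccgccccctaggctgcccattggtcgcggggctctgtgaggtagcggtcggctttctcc
SPRY2, chr13:80341127-80341376, minus strand: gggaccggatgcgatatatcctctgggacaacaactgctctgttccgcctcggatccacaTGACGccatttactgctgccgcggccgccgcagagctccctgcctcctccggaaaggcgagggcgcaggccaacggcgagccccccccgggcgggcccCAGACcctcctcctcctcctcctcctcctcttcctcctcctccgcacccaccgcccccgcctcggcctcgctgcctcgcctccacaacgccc

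The windows searched run from 250 bases before to 50 bases after each RefSeq start, 12 windows of 8 members (DUSP4 and DUSP5 had no entry), against 35116 windows of all genes. Both strands were searched. DUSP1 holds a full cAMP response element, TGACGTCA, at positions -125 to -118, counted with the first transcribed base as 0. It is the only one of the 12 windows with it, and 1.85% of all windows hold one. DUSP1 also has TATAAA at -30 to -25, as do 11.5% of all windows. TGACG, the short form of the cAMP element and a part of the full one, was in 5 of the 12 windows and in 24.6% of all. CAGAC, the short SMAD element, was in 7 of the 12 and in 45.3% of all, and its palindrome GTCTAGAC was in 0 of the 12 and 0.202% of all. The ETS core CCGGAAG (10.3% of all windows) and the CArG box of serum response elements (1.29%) were in 0 of the 12. The AP-1 site TGAGTCA (4.95%) was in 1, at an inner start of SPRED2. DUSP7 and the printed stretch of DUSP10 held none of these motifs. A match is a run of letters and was not tested for function.

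The other genes of the pathway come from lists chosen with earlier results of these data known. In the ERK pathway core, from the EGF receptor to ERK, 25 of 25 genes were tested and 0 passed edgeR or DESeq2. Their median log2 fold change was 0.03, against -0.01 over all tested genes. The lowest unadjusted edgeR p in the list was 0.318, for MAPK3, which encodes ERK1. MAPK3 had 14.3 and 16.6 CPM after TGF-β1 and 13.9 and 13.5 CPM in the controls. The next were HRAS, with log2 fold change 0.19, and the RAS relative MRAS, with 0.30, both with overlapping groups.

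Of 20 tested other transcripts known to follow ERK activity, 1 passed DESeq2 and 0 passed edgeR. FOS, a subunit of AP-1, rose by DESeq2 to 103 and 187 CPM after TGF-β1, against 34.6 and 57.3 CPM in the controls (log2 fold change 1.66, DESeq2 adjusted p = 0.00579, edgeR adjusted p = 1.00). EPHA2, an ephrin receptor, had 336 and 318 CPM after TGF-β1 and 222 and 203 CPM in the controls (log2 fold change 0.62, DESeq2 adjusted p = 0.272). MYC, a growth-promoting transcription factor, had 123 and 242 CPM after TGF-β1 and 404 and 489 CPM in the controls (DESeq2 adjusted p = 0.0853). Like the 10 members, this list pointed both ways, with 3 genes above both controls (FOS, EPHA2 and CCND1) and 3 below (MYC, EGR1 and PHLDA1), and a median log2 fold change of -0.05. CCND1, EGR1 and PHLDA1 are named after their values were seen. The ETS factors ETV4 and ETV5, also named so and like DUSP6 known as targets of ERK signalling, had log2 fold changes of -0.06 and -0.10, with overlapping groups. IER3 was listed at 0 in all libraries.

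Relatives of the members gave few differences. Among 13 tested other dual-specificity phosphatases 0 passed either test, and the median log2 fold change was 0.07. DUSP2, a nuclear phosphatase best known from leukocytes, had 6.85 and 15.9 CPM after TGF-β1 and 2.74 and 6.14 CPM in the controls, with separate groups and a log2 fold change of 1.36 ± 0.60 (SE). DUSP28 and DUSP12 had log2 fold changes of 0.30 and 0.14. SPRY1, the third Sprouty gene, had 1.53 and 2.20 CPM after TGF-β1 and 3.25 and 5.71 CPM in the controls, a log2 fold change of -1.26 ± 0.42 (SE; edgeR unadjusted p = 0.0357, adjusted p = 1.00). SPRY1 thus lay lower in both TGF-β1 libraries, as SPRY2 did within each replicate number, while SPRY3 (-0.18) and SPRED3 (-0.19) differed by less than their errors.

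Among 13 other inhibitors of receptor tyrosine kinases and RAS, 0 passed either test. LRIG3, a membrane protein of the family of the EGF receptor inhibitor LRIG1, had 33.3 and 39.5 CPM after TGF-β1 and 49.3 and 51.9 CPM in the controls (log2 fold change -0.48 ± 0.13, SE). The ubiquitin ligase gene CBL and the receptor phosphatase gene PTPRJ had log2 fold changes of 0.17 and 0.31. Of 17 JNK and p38 pathway kinases, among them the substrates of DUSP10 and DUSP1, 0 passed either test. MAP2K3, which activates p38, had 40.8 and 37.7 CPM after TGF-β1 and 28.1 and 31.6 CPM in the controls (log2 fold change 0.40). MAP3K1, a kinase upstream of JNK, had 45.2 and 36.5 CPM after TGF-β1 and 30.5 and 29.9 CPM in the controls (log2 fold change 0.44). For MAP3K2 the log2 fold change was 0.40, with overlapping groups.

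The medium holds hydrocortisone, and cholera toxin raises cAMP, and DUSP1 is known to respond to both signals. Of 11 tested glucocorticoid and cAMP responsive transcripts 0 passed either test, and the median log2 fold change was -0.04. Of these 11, 4 had a log2 fold change above 0 and 7 had one below. The 3 with the lowest p, all below 0, were NR4A2, PDE4B and SGK1. NR4A2, an orphan nuclear receptor, had 0.665 and 0.753 CPM after TGF-β1 and 1.38 and 1.58 CPM in the controls. PDE4B, a cAMP phosphodiesterase, had a log2 fold change of -1.35, and SGK1, a glucocorticoid-induced kinase, had -0.55. Whether either signal had a part in the DUSP1 values was not tested. As checks of TGF-β signalling, SMAD7 and SKIL, a SMAD co-repressor, had log2 fold changes of 3.76 and 1.88, and both rose by DESeq2.

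**Figure D5:**
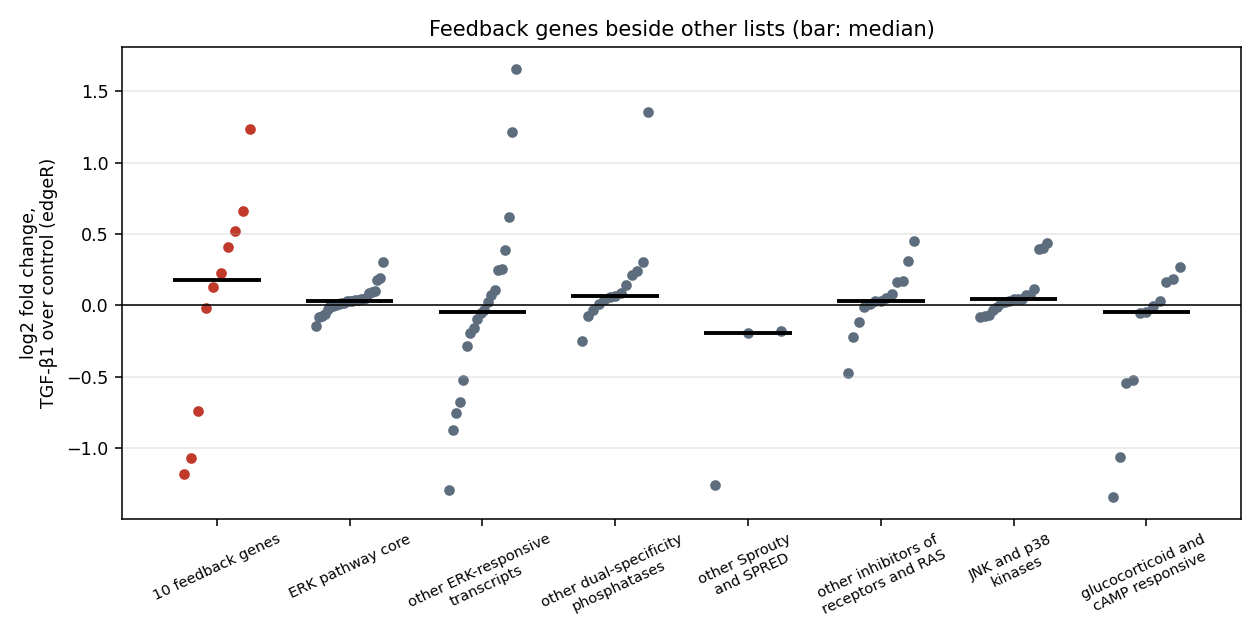
edgeR log2 fold changes, TGF-β1 over control, of the 10 feedback genes and of the tested genes in 7 lists, 1 point per gene with a bar at the median. The feedback genes run from -1.18 to 1.24 around a median of 0.18, and the genes of the ERK pathway core lie close to 0.

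The tested genes whose log2 CPM, centred on its mean, was nearest to that of DUSP10 across the 4 libraries were CLCF1, METRNL and CAMK1G. The Euclidean distances were 0.247, 0.255 and 0.258, over 4 libraries only. CLCF1, a cytokine of the interleukin-6 family, had 18.7 and 14.3 CPM after TGF-β1, against 7.75 and 5.32 CPM in the controls, and rose by DESeq2 (adjusted p = 0.0204, edgeR adjusted p = 1.00). METRNL, a secreted protein, and CAMK1G, a calmodulin-dependent kinase, had log2 fold changes of 1.53 and 1.71 at low levels and passed neither test.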

How the data were processed

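Libraries were made with a stranded total RNA kit with ribosomal RNA removal and read as 50-bp paired ends, per the labels' protocols, whereas the molecule field says polyA RNA. The labels call the libraries biological duplicates. Per the submitters' processing notes, the authors used kallisto and the build GRCh38. For kallisto's version and transcript annotation, nothing is stated (not given in the sources used here). Each deposited table holds estimated counts, TPM and effective lengths (other values, in bases) per transcript, per the file headers. Of 173259 transcripts, 159239 matched GENCODE release 29 (91.91%). The unmatched ones held 2.24% to 2.38% of a library's counts and were left out.

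Estimated counts were summed per gene, rounded and tested with edgeR 4.0.16 in R 4.3.3 (TMM, filterByExpr, quasi-likelihood test, adjusted over 14774 genes, threshold 0.05). The SE of a log2 fold change is its size over the square root of F. Within-replicate differences are of log2(CPM + 0.5). DESeq2 1.42.0 (19649 genes with an adjusted p), limma 3.58.1 on log2(TPM + 1) and log2(TPM + 0.1), RLE scaling, other filters, length offsets, a replicate block, each library left out, coding transcripts only and single transcripts were alternatives. The scripts were checked on simulated data. With 1 library left in a group, that library is assumed to vary like those of the other group. P-values measure only the spread between these libraries.

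The rule for genes named beside the members took the 3 with the lowest p in each list, genes checking the TGF-β response and the 3 nearest to the member with the largest difference. For transcripts it took those with at least 10% of a gene's TPM in either group. Marker genes and those said to be singled out or named after their values were seen fall outside it, as does IER3. Members and lists were chosen with earlier results of these data known. Promoter sequences are from RefSeq (GRCh38.p14). The protein sequences were not used here. Most list genes enter only the counts, and some that the rule or a marker list would name are not reported here.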

Additional observations from a re-analysis of the deposited data

How the results depend on the processing

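edgeR called 0 genes over all and 0 members without a block (255 genes at an unadjusted p under 0.05), and RLE scaling, the stricter filter, coding transcripts only, limma at both pseudocounts and a threshold of 0.01 also gave 0. DESeq2 called 83 genes higher and 7 lower, 3 list genes higher and 0 members. Without a filter edgeR called 15 genes higher and 1 list gene, and with length offsets 3 and 1. With the replicate block edgeR called 259 genes higher and 76 lower of 14774 tested, and 8 and 9 list genes. It called 4 members higher (DUSP1, DUSP4, DUSP7 and DUSP10) and 3 lower (DUSP5, DUSP6 and SPRY2). DESeq2 with that block called 194 and 51 of 15539 genes, 7 and 9 list genes, and the same 7 members. The deviations of same-numbered libraries from their group means correlated over genes (r = 0.76), but with 2 pairs and no label on what a number marks, the numbers are not taken to pair the libraries.

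Leaving out each library with either tool gave 8 to 62 genes higher and 0 to 17 lower, 1 to 4 list genes higher and 0 to 2 lower, and 0 to 1 members in each direction (DUSP10 higher without control replicate 1, DUSP6 lower without control replicate 2, both by DESeq2). Of 180 refitted member values 12 changed sign, in SPRY4 (-0.322 to 0.668 without a library), SPRED1 (-0.027 to 0.003) and SPRED2 (-0.066 to 0.374, and -0.004 and -0.003 by limma), and the cause was not tested. Without a library, DUSP1 ran from 0.22 to 1.01, DUSP4 from 0.43 to 0.63, DUSP5 from -1.52 to -0.73, DUSP6 from -1.35 to -0.71, DUSP7 from 0.002 to 0.88, DUSP10 from 0.90 to 1.70 and SPRY2 from -1.35 to -0.28. Adding 2 CPM in place of 0.5 kept 10 members with 1 direction in both replicate numbers.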
